A study of Mus musculus with 9 samples.

Results

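Gene expression was compared between CD97-deficient and wild-type (WT) type 2 conventional dendritic cells (cDC2s) of the mouse spleen, with 3 RNA-sequencing libraries in each group. All genes with at least 1 CPM (the count divided by the library's total and scaled up) in 3 or more of these 6 libraries entered the comparison, which left 11977 of the 14209 genes in the table. The labels give the strain as C57BL/6 for both groups, the genotype as WT or as CD97 KO, and the design text names the knockout allele Adgre5-/-. They give no age, sex or treatment, and whether each library stands for its own mouse is not stated. P-values therefore rest on the spread among libraries, part of which may be technical. The series also holds 3 libraries of cDC2s lacking Gα13, made with CD11c-Cre and a floxed Gna13 allele. They stayed out of the fit and serve below as a reference. CD11c-Cre acts in all cells that express CD11c, whereas Adgre5-/- is an allele of the whole animal, so cells other than cDC2s lacked CD97 too.

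CD97 belongs to the adhesion class of G protein-coupled receptors and is found on most white blood cells. Its ligands include CD55 on red blood cells and other cells, and it signals through Gα13 and the GTPase RhoA to the actin cytoskeleton. In the spleen, cDC2s take up antigen from the blood and present it to CD4 T cells. A fraction of them divides in place, and another fraction matures in the steady state, raises CCR7 and moves towards the T cell zone.

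The transcript of the targeted gene was read first. Cd97, the symbol of Adgre5 in the table (chromosome 8, 83723251 to 83741326, minus strand, mm10), had 1500, 897 and 1290 CPM in WT replicates 1 to 3. The CD97-deficient libraries had 724, 837 and 436 CPM. All 3 were below the lowest WT library, yet the log2 fold change of -0.89 ± 0.32 (SE) did not pass the threshold (edgeR quasi-likelihood test, adjusted p = 0.194). Counts per gene do not show which exons the reads came from, so the remaining reads do not check the label. The gene overlaps Ddx39 on the other strand (83715177 to 83726892), an RNA helicase gene with 56.1, 72.1 and 74.3 CPM in WT and 87.3, 92 and 109 CPM in CD97-deficient cells. No source used here states whether the counting respected strand, so reads in the overlap cannot be assigned to either gene. Within 5 Mb on each side of Cd97, 85 genes were tested, of which 5 were called higher and 1 lower. That is 7.06%, next to 6.59% of all genes tested. Gna13, the other gene targeted in the series, had 226, 227 and 185 CPM in WT and 226, 216 and 245 CPM in CD97-deficient cells.

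The libraries held between 5875891 and 9581458 counts, and 3 counts in 1 library equal 0.313 to 0.511 CPM. The cDC2 markers fixed for the check were all in the table, with a summed level of 4763 to 5490 CPM in WT and 4461 to 4833 CPM in CD97-deficient cells. Markers of red pulp macrophages, 14 of 14 detected, summed to 476 to 1456 CPM in WT and 527 to 1897 CPM in CD97-deficient cells, and their level was high in WT replicate 2 and CD97-deficient replicates 1 and 3. Markers of type 1 conventional dendritic cells (cDC1s) summed to 1684 to 1902 CPM in WT and 1816 to 1982 CPM in CD97-deficient cells. Monocyte markers summed to 657 to 1027 CPM in WT and 793 to 929 CPM in CD97-deficient cells. Plasmacytoid dendritic cell markers summed to 213 to 317 CPM in WT and 307 to 359 CPM in CD97-deficient cells. Mean log2 CPM of cDC1 markers was 4, 4.96 and 4.11 across WT replicates 1 to 3, against 4.96, 4.42 and 4.96 across the CD97-deficient ones. It was 4.42, 5.33 and 4.39 against 5.23, 4.59 and 5.02 for monocyte markers. Plasmacytoid markers had 2.85, 3.78 and 2.77 against 3.45, 2.48 and 3.26. The 3 libraries high in macrophage markers were the highest here too. Of the 9 neutrophil markers 6 were not in the table, S100a8, Ly6g and Mpo among them. The B cell markers summed to at most 76.1 CPM in WT and 115 CPM in CD97-deficient cells. Sex-linked genes separated the libraries in a way that moves with the genotype. All 3 CD97-deficient libraries and WT replicate 2 had 6370 to 7350 CPM of Xist (here scaled by the library total) and 6.55 to 8.13 CPM of 4 Y-linked genes together, a female pattern. WT replicates 1 and 3 had 185 and 116 CPM of Xist and 635 and 473 CPM of the Y-linked genes, a male pattern. Sex and genotype can therefore be told apart only through WT replicate 2. A fit with the sex pattern as a covariate reads the genotype difference from that library against the 3 CD97-deficient ones.

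CD97-deficient cDC2s had higher levels of genes for DNA replication and cell division, and lower levels of part of the genes of dendritic cell maturation, with 11 of 58 genes of cytokines, chemokines and their receptors and 11 of 48 of NF-κB and TNF receptor signalling also lower. At an adjusted p under 0.05 (edgeR quasi-likelihood test, Benjamini-Hochberg over all genes tested), 442 genes were called higher (3.69% of genes tested) and 347 lower (2.9%), 789 in all (6.59%). In all that follows, called refers to this test unless DESeq2 is named, and counts of list members are to be read next to these shares. DESeq2 called 511 genes higher and 513 lower, 777 of the 789 among them, and also called Actb, Bcl2, Ccl4, Cd209a, Fscn1 and Hmgcs1, given below as not called or without a call. All 789 had groups that did not overlap, as did 28.3% of all genes tested. Most differences were small: 92 genes were at least 2-fold higher and 55 at least 2-fold lower. The median over all genes tested was -0.004 on the log2 scale. Genes called higher made up 56% of the calls, and 66.6% when library totals replaced the TMM factors, which shifted all genes by 0.049. On the X chromosome 25 of 376 tested genes were called (6.65%).

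**Figure D1:**
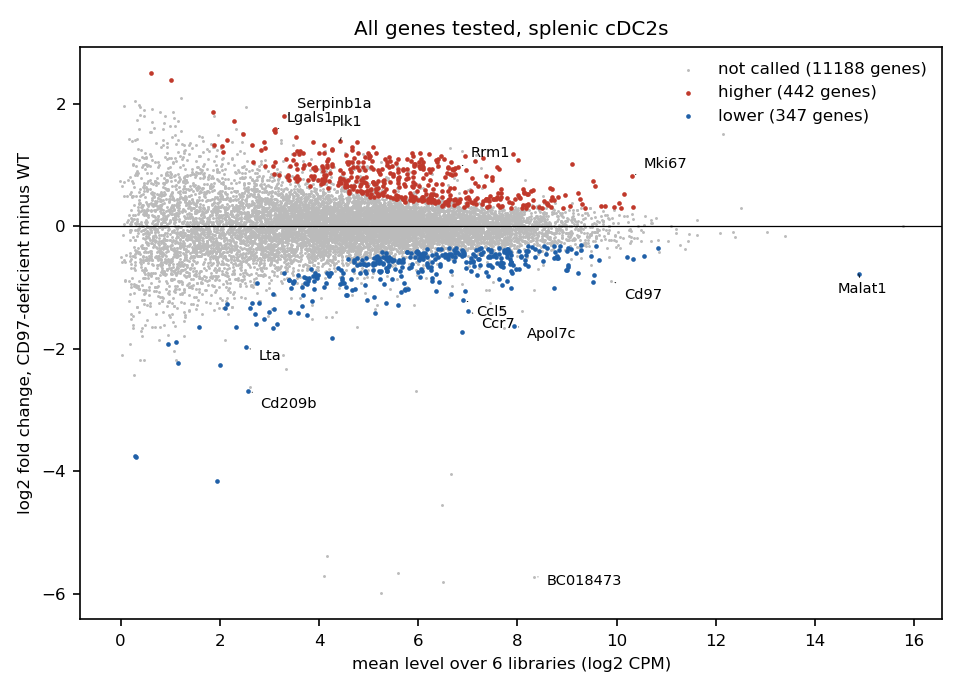
Log2 fold change of each gene tested, CD97-deficient minus WT, against its mean level in log2 CPM over the 6 libraries. Red points are the 442 genes called higher, blue points the 347 called lower and grey points the rest; BC018473, at -5.72, is a gene that was not called.

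The counts depended on single libraries and on the sex pattern. Without CD97-deficient replicate 3 the fit called 141 genes higher and 97 lower, without replicate 1 it called 201 and 159, without replicate 2 it called 232 and 182, and without WT replicate 1 it called 241 and 187. In every one of the 6 fits that left out 1 library, 209 of the 789 genes were called, 131 higher and 78 lower. With the sex pattern as a covariate, 17 genes were called higher (0.142% of genes tested) and 48 lower (0.401%), and 59 of these 65 were among the 789. With the macrophage marker level as a covariate, 269 were called higher and 206 lower.

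Genes of DNA replication rose as a group. Of 56 tested members of the list, 37 were called higher and none lower, and the median log2 fold change of the 56 was 0.77. In 50 the groups did not overlap, next to 28.3% of all genes tested. Cells copy their DNA with the MCM helicase, which opens the double helix at origins, and with enzymes that make deoxynucleotides. Rrm1 (chromosome 7, 102441695 to 102469771), the large subunit of ribonucleotide reductase, had 74.9, 82.1 and 71.4 CPM in WT replicates 1 to 3. It had 149, 147 and 148 CPM in the CD97-deficient libraries. This was a 1.94-fold difference (log2 0.96 ± 0.09 SE, adjusted p = 0.000589), the smallest p among genes that rose. Rrm2, the small subunit, had 57.2, 80.6 and 56.9 CPM in WT and 140, 118 and 122 CPM in CD97-deficient cells. Mcm6, a helicase subunit, went from 77.9, 98.2 and 83 CPM to 156, 158 and 173 CPM. Dnmt1, which copies DNA methylation onto the new strand, had 111, 137 and 110 CPM in WT and 206, 200 and 226 CPM in CD97-deficient cells. In all 4 genes the lowest CD97-deficient library lay above the highest WT library, and WT replicate 2, with the female pattern, was the highest of its group.

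Other members had log2 fold changes of like size. Chaf1a, which loads histones onto new DNA, was at 1 ± 0.13 (adjusted p = 0.00193) and Ung, which removes uracil from DNA, at 1.24 ± 0.21 (adjusted p = 0.00507). Outside the list, Dtl, a substrate receptor of a ubiquitin ligase active in S phase, and Neil3, a DNA glycosylase, also rose, and both were called with the sex covariate (adjusted p = 0.0351 and 0.0256). Dtl had 34.4, 46.8 and 38.1 CPM in WT and 82.8, 86.6 and 103 CPM in CD97-deficient cells. Of the 37 calls in the list, 21 stood in every fit that left out 1 library, and the lowest count was 22, without CD97-deficient replicate 3. With the sex pattern as a covariate the list had 2 calls, Rrm1 and Mcm6, and a median of 0.59, which was the difference to WT replicate 2. As in any bulk sample, more cells of a type and more RNA per cell cannot be told apart, so these levels do not show whether more cells were in cycle.

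Mitosis genes rose in the largest share of any list described here. Of 76 tested members 66 were called higher and none lower, with a median of 0.95. Plk1, the polo-like kinase that starts mitosis (chromosome 7, 122159439 to 122169873), showed 11.3, 13.8 and 9.82 CPM in WT and 31.9, 30.5 and 29.4 CPM in CD97-deficient cells. The 2.62-fold difference (log2 1.39 ± 0.17, adjusted p = 0.0015) was called in each fit that left out 1 library, but not with the sex covariate (adjusted p = 0.0593). Cdca3, part of a ubiquitin ligase that lets cells enter mitosis, had 14.6, 17.9 and 12.4 CPM in WT and 38.5, 38.6 and 38.9 CPM in CD97-deficient cells. Cdc25c, the phosphatase that activates CDK1, rose from 5.33, 6.5 and 6.26 CPM to 19.1, 13 and 17 CPM. Spindle motors rose beside these kinases and phosphatases: Kif18b by 1.13 ± 0.13, Kif4 by 1.14 and Kif2c by 1.26 ± 0.17 on the log2 scale.

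Aurkb and Birc5, 2 subunits of the chromosomal passenger complex that checks the attachment of chromosomes, had log2 fold changes of 1.09 ± 0.15 and 1.03 ± 0.13. Ncapd2, a subunit of condensin, had 56.8, 75.5 and 66.9 CPM in WT and 124, 126 and 135 CPM in CD97-deficient cells. Stmn1, which takes microtubules apart, had 6.2, 10.4 and 7.11 CPM in WT and 24.8, 19.3 and 17.8 CPM in CD97-deficient cells. The spindle checkpoint gene Bub1b was at 0.95 ± 0.12 (adjusted p = 0.00166). Cdc20, which starts anaphase, was at 0.99 ± 0.23, with an adjusted p of 0.0287 that rose to 0.129 without CD97-deficient replicate 3. Of the 66 calls, 46 stood in every fit that left out 1 library. With the sex covariate 6 members were called, Kif15, Kif4, Kif18b, Ckap2, Ncapd2 and Cdca3, and the median was 0.67.

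Promoters of replication genes often carry sites for E2F factors, and those of mitosis genes a CCAAT box and a short element near the start site, the cell cycle genes homology region (CHR), which the DREAM and MMB complexes read. These letters were searched in RefSeq promoter windows of 250 bases before to 50 bases after the start (GRCm38.p6), on both strands: TTTGAA for the CHR, CCAAT for the box, and TTTCCCGC or TTTGGCGC for E2F. Of the 11977 genes tested, 6843 had exactly 1 such window. The CHR letters were in 66.7% of the 57 mitosis genes with a window, in 27.9% of the 280 genes called higher, 11.7% of the 196 called lower and 12.2% of the genes tested. In replication genes they were in 13.2% of 38 windows, and in all 22862 single promoters of the table in 18.5%. The CCAAT letters were in 68.4% of mitosis genes, 60.5% of replication genes, 40.4% of genes tested and 38.2% of all single promoters. One of the E2F forms was in 28.9% of replication genes, 28 of the 280 genes called higher, 2.0% of genes called lower, 3.5% of genes tested and 1.6% of all single promoters. A match is a description of the letters, not a binding site. The 4 windows below, from genes described here, show where the matches lie, with CHR and CCAAT letters of either strand in capitals. Each runs 5′ to 3′ along the gene's strand.
Plk1 (chr7:122159185-122159484, plus strand): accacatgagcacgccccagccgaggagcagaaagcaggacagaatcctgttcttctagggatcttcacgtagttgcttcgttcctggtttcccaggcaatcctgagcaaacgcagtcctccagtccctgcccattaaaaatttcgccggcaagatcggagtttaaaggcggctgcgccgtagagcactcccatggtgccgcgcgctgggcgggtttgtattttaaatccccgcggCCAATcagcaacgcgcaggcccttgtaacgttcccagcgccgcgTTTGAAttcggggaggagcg
Cdca3 (chr6:124829926-124830225, plus strand): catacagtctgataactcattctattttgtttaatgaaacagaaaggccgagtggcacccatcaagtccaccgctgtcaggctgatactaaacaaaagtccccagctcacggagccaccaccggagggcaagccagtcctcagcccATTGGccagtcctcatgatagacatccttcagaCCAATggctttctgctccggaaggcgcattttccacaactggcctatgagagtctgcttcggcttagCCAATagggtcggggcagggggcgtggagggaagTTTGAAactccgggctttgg
Ccnb1 (chr13:100786437-100786736, minus strand): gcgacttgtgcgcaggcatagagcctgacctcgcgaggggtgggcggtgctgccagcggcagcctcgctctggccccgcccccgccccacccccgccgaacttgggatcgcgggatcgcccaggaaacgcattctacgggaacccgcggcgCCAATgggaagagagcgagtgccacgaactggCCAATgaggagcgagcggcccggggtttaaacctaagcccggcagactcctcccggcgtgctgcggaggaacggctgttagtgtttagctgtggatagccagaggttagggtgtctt
Rrm1 (chr7:102441445-102441744, plus strand): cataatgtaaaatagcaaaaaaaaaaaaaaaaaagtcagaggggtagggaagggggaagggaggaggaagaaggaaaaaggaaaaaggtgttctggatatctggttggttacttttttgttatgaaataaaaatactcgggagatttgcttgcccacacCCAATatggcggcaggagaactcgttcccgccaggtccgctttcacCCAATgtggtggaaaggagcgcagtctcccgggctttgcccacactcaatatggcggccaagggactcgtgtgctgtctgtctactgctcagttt
Plk1 had 1 CCAAT match 14 bases before the start and 1 CHR match from base 31 after it. Cdca3 had 3 CCAAT matches and 1 CHR match. Ccnb1 and Rrm1 had 2 CCAAT matches each, and the CHR and E2F letters were not in these 2 windows.

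Cyclins, the kinases they activate and the transcription factors of proliferation moved in both directions, with 20 of 46 tested members called higher and 2 lower (median 0.42). Among the factors that drive the cycle, Foxm1, which switches on mitosis genes, had 47.2, 52.6 and 38.9 CPM in WT and 89.1, 89.1 and 88.6 CPM in CD97-deficient cells. Mki67, the proliferation marker and among the most abundant genes that rose, had 965, 1040 and 742 CPM in WT and 1640, 1590 and 1600 CPM in CD97-deficient cells. Ccna2, the cyclin of S and G2 phase, went from 75.9, 92.6 and 61.6 CPM to 193, 152 and 161 CPM. The groups did not overlap in these genes, and all 3 were called in each fit that left out 1 library. E2f1 was at 1.04 ± 0.2 and Ccne1, the cyclin of the entry into S phase, at 1.17 ± 0.19.

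The MYC antagonists of the MXD family moved in opposite directions. Mxd3, which is expressed in dividing cells, had 4.02, 4.2 and 4.23 CPM in WT and 8.97, 14.3 and 14.3 CPM in CD97-deficient cells. Mxd1, which is linked to differentiation, fell from 132, 170 and 162 CPM to 86.1, 97.3 and 106 CPM, and was also called with the sex covariate (adjusted p = 0.0382). Ccnd2, a D-type cyclin, had 199, 146 and 156 CPM in WT and 85.5, 54.9 and 99.6 CPM in CD97-deficient cells, with an adjusted p of 0.0427 that reached 0.134 without WT replicate 1. Myc itself was not called (log2 0.32 ± 0.19), nor were Ccnd3 (0.42 ± 0.15) and the CDK inhibitor Cdkn1a (-0.71 ± 0.27). With the sex covariate 1 member was called, Mxd1.

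Part of the genes of dendritic cell maturation and migration fell. Of 42 tested members 16 were called lower and none higher, and the median was -0.62. In 26 the groups did not overlap, next to 28.3% of all genes tested. Ccr7, which steers mature dendritic cells along CCL19 and CCL21 into T cell zones (chromosome 11, 99144196 to 99155077), had 174, 205 and 182 CPM in WT replicates 1 to 3. It had 53.1, 79.3 and 80.9 CPM in the CD97-deficient libraries, a 2.63-fold lower level (log2 -1.39 ± 0.15, adjusted p = 0.00158). Cd83, a surface marker of mature dendritic cells that stabilises MHC class II, had 309, 331 and 332 CPM in WT and 187, 206 and 204 CPM in CD97-deficient cells. Apol7c, an apolipoprotein L gene (chromosome 15, 77524852 to 77533316), showed 374, 413 and 324 CPM in WT and 114, 102 and 143 CPM in CD97-deficient cells. Its log2 fold change was -1.63 ± 0.13, with the same adjusted p as Rrm1. Groups lay far apart in all 3 genes, and their WT values were as high in replicate 2 as in the male-pattern replicates.

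Further members that fell were Cacnb3, a calcium channel subunit, from 103, 130 and 101 CPM to 49.1, 46.4 and 64 CPM, and Etv3, a transcriptional repressor, from 259, 344 and 281 CPM to 167, 167 and 194 CPM. Tnfrsf11a, the receptor RANK, had 93.5, 109 and 96.5 CPM in WT and 50.1, 63.4 and 53.3 CPM in CD97-deficient cells. Costimulatory genes had small falls, of which edgeR called only that of Icosl among those named here. Cd80 was not called at -0.36 ± 0.1 (adjusted p = 0.0599, and 0.0486 by DESeq2), nor were Cd86 at -0.2 ± 0.14 and Cd40 at -0.28 ± 0.13. Icosl, the ligand of ICOS on T cells, was called at -0.38 ± 0.07, with an adjusted p of 0.0665 without CD97-deficient replicate 1. Fscn1, the actin bundler of mature dendritic cells, had 98.1, 131 and 72 CPM in WT and 53.7, 65.1 and 77.3 CPM in CD97-deficient cells, so the groups overlapped. Of the 16 calls, 10 stood in every fit that left out 1 library. With the sex covariate 11 members were called lower, with a median of -0.79, next to 0.401% of all genes tested.

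**Figure D2:**
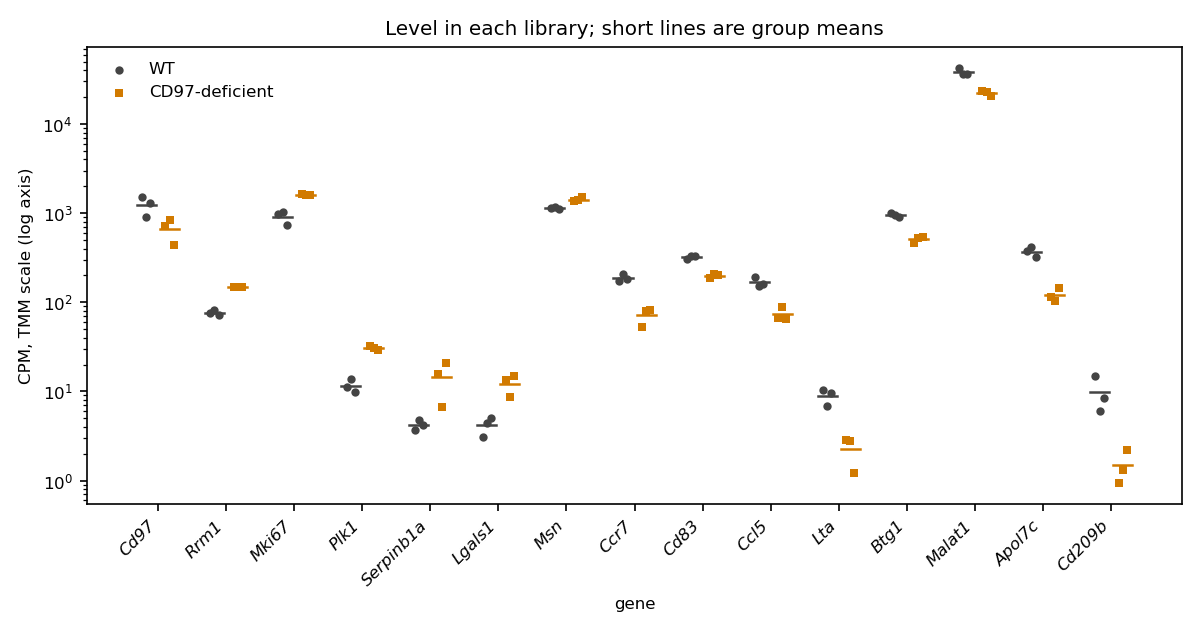
Level of 15 genes in each of the 6 libraries, in CPM on the TMM scale with a log axis; circles are WT, squares CD97-deficient, and the 3 points of a group run from replicate 1 to 3 with a short line at the mean. Every gene shown had groups that did not overlap, Cd97 included, whose difference was not called.

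Cytokines, chemokines and their receptors had 11 of 58 tested members called lower and none higher (median -0.21). Lta, which encodes lymphotoxin α (chromosome 17, 35203165 to 35205351), showed 10.3, 6.91 and 9.48 CPM in WT and 2.83, 2.78 and 1.23 CPM in CD97-deficient cells, a log2 fold change of -1.98 ± 0.35. The neighbouring Tnf (35199381 to 35202007) had 85.5, 63.4 and 56 CPM in WT and 34, 29.7 and 33.2 CPM in CD97-deficient cells. Il1b, the inflammatory cytokine interleukin 1β, fell from 262, 187 and 202 CPM to 123, 124 and 122 CPM. Ccl5, a chemokine that draws T cells, fell from 191, 151 and 162 CPM to 66, 88.7 and 64.7 CPM. All 4 were called in each fit that left out 1 library, and of them Ccl5 was called with the sex covariate (adjusted p = 0.0288). Ccl3 and Ccl4 varied more. Ccl3 had 44.2, 21.3 and 9.99 CPM in WT and 15, 4.97 and 7.13 CPM in CD97-deficient cells, with overlap and no call. Ccl4 had 17.5, 7.86 and 4.06 CPM in WT and 2.83, 0.438 and 1.45 CPM in CD97-deficient cells, without overlap, and 3 counts in its lowest library. Its log2 fold change of -2.62 ± 0.69 was not called by edgeR (adjusted p = 0.0727) but was called by DESeq2 (adjusted p = 9.3e-05).

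On the receptor side, Tnfrsf1b, the second TNF receptor, had 234, 215 and 206 CPM in WT and 140, 135 and 137 CPM in CD97-deficient cells. The chains of the receptor for the growth factor GM-CSF fell, Csf2rb by 0.51 and Csf2ra by 0.35 on the log2 scale. Csf2rb2, a related chain, also fell by 0.51. Csf2ra was called in 1 of the 6 leave-one-out fits (highest adjusted p 0.157) and Csf2rb2 in 5. Both calls were lost without CD97-deficient replicate 3 (adjusted p = 0.055 for Csf2rb2). Csf2rb and Csf2rb2 are near-identical copies, so their reads may have been split between them. Flt3, the receptor of the dendritic cell growth factor FLT3L, was not called (687, 559 and 516 CPM against 513, 457 and 442 CPM).

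Among 45 other G protein-coupled receptors, 4 were called lower and none higher, next to 2.9% and 3.69% of all genes tested. Emr1, the adhesion receptor F4/80 and a relative of CD97, had 325, 276 and 240 CPM in WT and 201, 182 and 165 CPM in CD97-deficient cells (log2 -0.62 ± 0.12, adjusted p = 0.00967, and 0.055 without CD97-deficient replicate 3). Emr1 is also a red pulp macrophage marker, and the other members of that marker list were not called. Gpr132 and Gpr4 were at -0.53 ± 0.11 and -0.62 ± 0.16, and Ptger4, a receptor of prostaglandin E2, at -0.72 ± 0.18. Each of these 3 lost its call in several fits that left out 1 library, with the highest adjusted p at 0.0798 without CD97-deficient replicate 1 for Gpr132, 0.15 without replicate 3 for Gpr4 and 0.103 without replicate 2 for Ptger4. Gpr183, the oxysterol receptor that positions cDC2s in the spleen, was not called (-0.33 ± 0.12, adjusted p = 0.113).

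NF-κB is the transcription factor family that carries TNF and Toll-like receptor signals to inflammatory genes. Of 48 tested members of its list, 11 were called lower and 1 higher (median -0.19). Birc2, a ubiquitin ligase of TNF receptor complexes (chromosome 9, 7818227 to 7837064), showed 284, 248 and 229 CPM in WT and 138, 141 and 138 CPM in CD97-deficient cells. Nfkbiz, a nuclear member of the IκB family, fell from 340, 286 and 264 CPM to 183, 178 and 166 CPM. Traf1, an adaptor, was at -0.52 ± 0.08. Of the NF-κB subunits, Nfkb1 was called higher at 0.44 ± 0.09 (478, 562 and 527 CPM against 692, 742 and 690 CPM), and Rel, Relb and Nfkb2 were not called. Nfkb1 had an adjusted p of 0.0601 without CD97-deficient replicate 2. With the sex covariate 3 members were called, all lower, Birc2, Tnfrsf11a and Tnfrsf1b.

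Immediate early genes are those that cells switch on within minutes of a stimulus. Their list, which also holds the AP-1, EGR, NR4A, KLF and DUSP families, had 6 of 47 tested members called lower and none higher. Its median was -0.5. The count ranged from 1 without CD97-deficient replicate 3 to 14 without WT replicate 3, and the median was -0.3 without WT replicate 1. The calls were Btg1, Btg2, Zfp36l1, Dusp2, Gadd45b and Ppp1r15a. Btg1, a gene that restrains proliferation (chromosome 10, 96617006 to 96622809), showed 1000, 959 and 914 CPM in WT and 459, 530 and 538 CPM in CD97-deficient cells (log2 -0.91 ± 0.09). It was called in each fit that left out 1 library and with the sex covariate (adjusted p = 0.0078). Zfp36l1, which speeds mRNA decay, had 326, 348 and 266 CPM in WT and 168, 223 and 187 CPM in CD97-deficient cells. The classical members spread widely within WT: Egr1 had 457, 339 and 88.5 CPM there and 162, 90.1 and 99.5 CPM in CD97-deficient cells, and Fos 140, 106 and 25.4 CPM against 68.6, 36.7 and 46.5 CPM. Neither was called. Rgs1, which shortens G protein signals and stands on another list, also spread widely, with 694, 445 and 170 CPM in WT and 264, 136 and 233 CPM in CD97-deficient cells.

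Pathogen sensors were lower in part. Of 39 tested Toll-like receptors and adaptors 6 were called lower and 1 higher (median -0.18). Tlr11, which in mice senses profilin of Toxoplasma and flagellin, had 83, 59.1 and 70.8 CPM in WT and 36.1, 31.1 and 37.1 CPM in CD97-deficient cells (log2 -1.03 ± 0.14, adjusted p = 0.00193). Tlr5, the flagellin receptor, was at -0.55 ± 0.12, Tlr7, the sensor of single-stranded RNA, at -0.58 ± 0.13, and Unc93b1, which carries Toll-like receptors to endosomes, at -0.42 ± 0.1. Inflammasome genes Casp1 and Nlrc4 were at -0.78 ± 0.17 and -0.54 ± 0.13. Apart from Tlr11, these calls were lost in 3 or more of the 6 fits that left out 1 library, with the highest adjusted p at 0.0877 for Tlr5, 0.0991 for Tlr7, 0.129 for Unc93b1 and 0.131 for Nlrc4, all without CD97-deficient replicate 3, and 0.101 for Casp1 without WT replicate 1. Tlr9, Tlr3, Myd88 and Nlrp3 were not called. Tlr11 was not called with the sex covariate (adjusted p = 0.0669).

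Interferon response genes had 4 of 65 tested members called lower and 1 higher, next to 2.9% and 3.69% of all genes tested. Of the 4 called lower, 3 belong to the guanylate-binding proteins, GTPases that attack vacuoles of intracellular pathogens. Gbp8 had 372, 279 and 289 CPM in WT and 162, 162 and 143 CPM in CD97-deficient cells. Gbp4 had 154, 110 and 150 CPM in WT and 55.1, 68.9 and 69.2 CPM in CD97-deficient cells. Gbp9 was at -0.64 ± 0.11. The family lies in clusters of similar copies, so reads may have been split between members. The other calls were Trim30d, lower at -0.51 ± 0.1, and Ifitm1, higher at 0.47 ± 0.13, called in 4 and 1 of the leave-one-out fits. In edgeR's test Ifit1 at -0.62 ± 0.18 (adjusted p = 0.0544) and Rsad2 at -0.72 ± 0.21 (adjusted p = 0.0638) were not called, whereas DESeq2 called both (adjusted p = 0.0229 and 0.0154). Isg15 was at 0.02 ± 0.22. Among 39 C-type lectins and phagocytic receptors 3 were called, all lower, next to 2.9% of all genes tested. Cd209b, the SIGN-R1 lectin of marginal zone macrophages, had 14.9, 5.96 and 8.47 CPM in WT and 0.944, 1.31 and 2.23 CPM in CD97-deficient cells. Its log2 fold change was -2.69 ± 0.43 (adjusted p = 0.00398, and 0.123 with the sex covariate), and the other 3 marginal zone macrophage markers were not called.

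Genes of the CD97 pathway itself did not move together. Of 32 tested members, from the ligand Cd55 over G proteins to RhoA effectors, 1 was called. Cfl1, the actin-severing protein cofilin, had 345, 445 and 435 CPM in WT and 567, 549 and 623 CPM in CD97-deficient cells (log2 0.51 ± 0.1, adjusted p = 0.014, and 0.0885 without CD97-deficient replicate 3). Rhoa was at 0.32 ± 0.1 (adjusted p = 0.0655), and Gna12 at 0 ± 0.16, Arhgef1 at 0.01 ± 0.08 and Rock1 at -0.08 ± 0.09 were close to 0. Cd55 was near the detection floor, with 0.339 to 2.44 CPM in WT and 1.56 to 4.84 CPM in CD97-deficient cells.

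Of 55 tested genes of the actin cytoskeleton, 7 were called higher and 1 lower (median 0.18). The higher count fell to 2 without CD97-deficient replicate 3 and to 0 with the sex covariate. Flna, filamin A, which crosslinks actin and ties it to the membrane (chromosome X, 74223461 to 74249820), showed 498, 613 and 531 CPM in WT and 935, 856 and 956 CPM in CD97-deficient cells. Its log2 fold change was 0.74 ± 0.09 (adjusted p = 0.00158), and 0.58 with the sex covariate (adjusted p = 0.0595). Tmsb10, a thymosin that binds actin monomers, had 105, 126 and 140 CPM in WT and 178, 194 and 212 CPM in CD97-deficient cells. Msn, moesin, which links actin to membrane proteins, had 1140, 1160 and 1110 CPM in WT and 1360, 1390 and 1500 CPM in CD97-deficient cells. Its 1.25-fold difference was called in 2 of the 6 leave-one-out fits, and its adjusted p was 0.192 without CD97-deficient replicate 3. Tropomyosins split, with Tpm4 at 0.36 ± 0.08 and Tpm1 at -0.45 ± 0.1. Actb was not called (0.29 ± 0.09).

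The list of galectins, vimentin, annexins and S100 genes had 7 of 29 tested members called higher and 1 lower, with a median of 0.43. Vim, the intermediate filament of migrating and dividing cells (chromosome 2, 13573927 to 13582826), showed 156, 204 and 142 CPM in WT and 356, 323 and 380 CPM in CD97-deficient cells. Its log2 fold change was 1.08 ± 0.13 (adjusted p = 0.00172), and 0.79 with the sex covariate (adjusted p = 0.027). Anxa6, a membrane-binding annexin, had 473, 459 and 532 CPM in WT and 680, 737 and 710 CPM in CD97-deficient cells, and was also called with the sex covariate (adjusted p = 0.0493). Lgals1, galectin 1, had 3.05, 4.47 and 5.08 CPM in WT and 13.3, 8.76 and 14.7 CPM in CD97-deficient cells (adjusted p = 0.00728, and 0.0523 without CD97-deficient replicate 3). The lamins Lmnb1 and Lmnb2, which line the nucleus, were at 0.67 ± 0.16 and 0.74 ± 0.2, each called in at most 1 fit that left out a library.

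The list of integrins and other adhesion genes had 3 of 52 tested members called higher and 1 lower, next to 3.69% and 2.9% of all genes tested. Itgb7, the β7 chain that pairs with α4 and αE, had 153, 159 and 153 CPM in WT and 219, 218 and 200 CPM in CD97-deficient cells (log2 0.45 ± 0.08, adjusted p = 0.00822). The chains of the main cDC2 integrins, Itgax (-0.06 ± 0.08), Itgam (0.09 ± 0.08), Itgb2 (0.09 ± 0.08) and Itgb1 (0.11 ± 0.08), were not called.

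Of 52 genes of cDC2 lineage and of the ESAM-high subset, 3 were called higher and 2 lower, next to 3.69% and 2.9% of all genes tested, and none with the sex covariate. Cd4, which marks splenic ESAM-high cDC2s, had 821, 529 and 569 CPM in WT and 422, 423 and 359 CPM in CD97-deficient cells, at an adjusted p of 0.0492 that reached 0.173 without CD97-deficient replicate 3. Zeb2, a transcription factor of the myeloid lineage, had 363, 359 and 290 CPM in WT and 271, 217 and 206 CPM in CD97-deficient cells, with an adjusted p of 0.102 without replicate 3. Cd24a, a surface glycoprotein, rose from 11.7, 22.8 and 14.6 CPM to 37.1, 30.1 and 39.1 CPM, and its adjusted p was 0.0794 without replicate 3. Esam (-0.43 ± 0.16), Notch2 (-0.01 ± 0.08), Irf4 (-0.16 ± 0.09), Sirpa (-0.06 ± 0.08) and Clec4a4 (-0.24 ± 0.16), other markers of the subset, were not called. Cd209a had a lower mean, but 581 CPM in WT replicate 1 stood apart from 182 and 199 CPM in the others, against 120, 108 and 75.5 CPM in CD97-deficient cells.

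MHC class II genes had 1 of 24 tested members called. H2-Eb2, a class II β chain with limited expression, had 222, 243 and 263 CPM in WT and 133, 174 and 163 CPM in CD97-deficient cells (log2 -0.63 ± 0.11, adjusted p = 0.00611). The classical chains and the invariant chain were near WT, with H2-Ab1 at -0.17 ± 0.08, H2-Aa at -0.1 ± 0.08 and Cd74 at -0.16 ± 0.08, none of them called. None of 24 MHC class I genes was called by edgeR or by DESeq2, and 3 had an unadjusted p under 0.05.

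Few sterol and energy genes were called. Of 46 tested genes of cholesterol synthesis and transport, 4 were called higher and 1 lower, while the median of all 46 was 0.64. The calls were Acat2, Fdft1, Mvd and Sc5d, 4 enzymes of synthesis, and Mylip, a ubiquitin ligase of sterol uptake, which fell by 0.51 ± 0.13. Fdft1, squalene synthase, had 13.8, 22 and 29 CPM in WT and 36.6, 47 and 50.4 CPM in CD97-deficient cells. Members of larger effect had wide WT ranges: Hmgcs1 had 47.5, 72 and 92.8 CPM in WT and 134, 193 and 168 CPM in CD97-deficient cells (log2 1.23 ± 0.27, adjusted p = 0.0536). WT replicate 1 was the lowest library for Fdft1, Hmgcs1 and Sqle. Each of the 5 calls was lost in at least 4 of the 6 fits that left out 1 library, and the list had 0 members called higher without CD97-deficient replicate 2 or 3 and 17 without WT replicate 3. DESeq2 called 14 higher and 1 lower.

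In glycolysis 3 of 27 tested enzymes were called higher and 1 lower, next to 3.69% and 2.9% of all genes tested. Gapdh had 141, 176 and 162 CPM in WT and 231, 229 and 273 CPM in CD97-deficient cells (log2 0.61 ± 0.1). Pfkfb3, which makes the activator of phosphofructokinase, fell from 264, 359 and 258 CPM to 188, 188 and 193 CPM, and was called with the sex covariate as well (adjusted p = 0.00743). Oxidative phosphorylation genes had 3 of 85 called higher and none lower (median 0.25), a share no larger than the 3.69% of all genes tested, and none was called without CD97-deficient replicate 3 or with the sex covariate. Their members included Atp5b, the catalytic β subunit of ATP synthase, with 828, 1050 and 905 CPM against 1360, 1250 and 1390 CPM. Cytosolic ribosomal protein genes had 1 of 74 called, with a median of 0.15. The unfolded protein response list had 1 of 32 called higher, P4hb, and 1 lower, Eif2ak3. None of 29 heat shock genes was called by edgeR, with 7 at an unadjusted p under 0.05 and 1 called by DESeq2. Hspa1a had 114, 4.07 and 1.69 CPM in WT replicates 1 to 3. The mean log2 CPM of the heat shock list was 7.1, 6.11 and 5.76 in these libraries. WT replicate 1 was also the highest WT library for the immediate early list (6.04, 5.71 and 5.35). It was the highest for Egr1, Fos, Rgs1, Ccl3, Ccl4, Tnf, Il1b, Nfkbiz and Birc2, but not for Zfp36l1. The NF-κB list was at 6.24, 6.24 and 6.16. Whether these levels are linked was not tested. Of 42 lysosome and cathepsin genes 1 was called, Cd68, which was higher. No T cell (3 tested), NK cell (1), plasma cell (2), erythroid (3) or stroma (2) marker was called by edgeR, and DESeq2 called 1 of them, an erythroid marker.

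Survival genes of the BCL2 family had 4 of 27 tested members called lower and 1 higher. Bmf, a cell death activator, fell from 81.1, 81.4 and 85.2 CPM to 53.6, 52 and 47.2 CPM (log2 -0.7 ± 0.1, adjusted p = 0.00227). The copies Bcl2a1a and Bcl2a1b, which protect from cell death and are too alike for their reads to be assigned with certainty, were at -0.68 ± 0.18 and -0.41 ± 0.1. Bcl2 was not called (0.66 ± 0.21, adjusted p = 0.0809). Among nuclear RNAs and factors of RNA decay, 5 of 49 were called lower and 2 higher. Malat1, an abundant nuclear RNA that is not translated (chromosome 19, 5795690 to 5802672), showed 42700, 35900 and 36100 CPM in WT and 23400, 22700 and 20600 CPM in CD97-deficient cells. Neat1, the scaffold of paraspeckles, fell from 1070, 888 and 902 CPM to 609, 711 and 612 CPM. Zfc3h1, which feeds nuclear RNA to the exosome, fell from 675, 655 and 553 CPM to 389, 405 and 356 CPM. Malat1 and Zfc3h1 were also called with the sex covariate (adjusted p = 0.0351 and 0.0267).

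**Figure D3:**
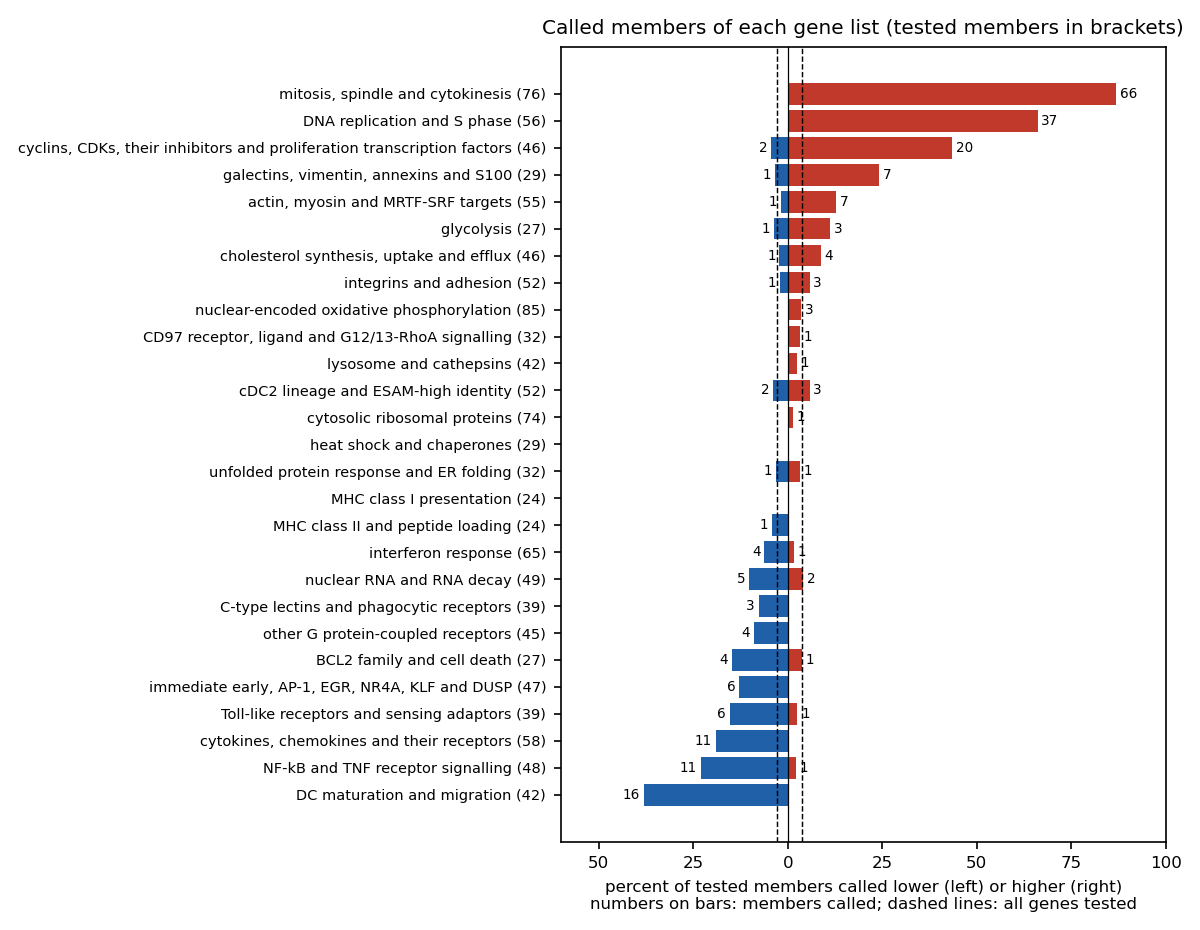
Percent of tested members of each gene list shown that were called lower (blue, left) or higher (red, right) in CD97-deficient against WT cells, with the number of called members on the bars and the tested members in brackets. Dashed lines mark all genes tested, 2.9% lower and 3.69% higher; mitosis (66 of 76) and DNA replication (37 of 56) reach farthest to the right, and maturation (16 of 42) farthest to the left.

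**Figure D4:**
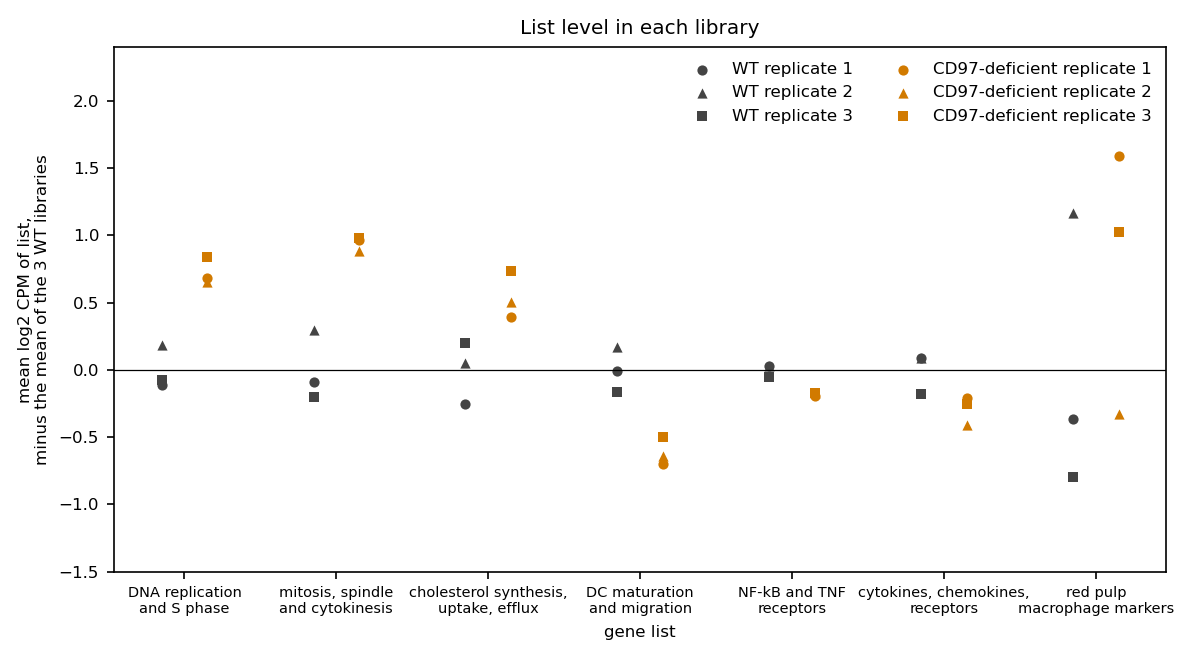
Mean log2 CPM of 7 lists in each library, minus the mean of the 3 WT libraries; symbols mark the replicate, grey WT and orange CD97-deficient. Replication, mitosis and maturation levels did not overlap between groups, whereas the red pulp macrophage level was high in WT replicate 2 and in CD97-deficient replicates 1 and 3 and low in the other 3.

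The plot of list levels shows how the libraries of a group varied among themselves. The mean level of the mitosis list was 4.88, 5.27 and 4.77 log2 CPM in WT replicates 1 to 3 and 5.94, 5.86 and 5.95 in the CD97-deficient ones. For DNA replication it was 4.56, 4.86 and 4.6 against 5.36, 5.33 and 5.51. For maturation it was 5.96, 6.14 and 5.8 against 5.27, 5.33 and 5.47. WT replicate 2 was the highest WT library in all 3 lists, so it lay nearer to the CD97-deficient libraries in replication and mitosis and farther from them in maturation. The red pulp macrophage level was 4.42, 5.95 and 3.99 in WT and 6.38, 4.46 and 5.81 in CD97-deficient cells. With it as a covariate, 60 mitosis, 29 replication and 15 maturation genes were called in the directions given above. Levels of cDC1, monocyte and plasmacytoid dendritic cell markers, given above, were highest in the libraries with the highest macrophage level. The cDC2 marker level was not (7.21, 7.02 and 7 against 6.91, 7 and 6.59). The macrophage covariate therefore does not stand for macrophages alone. The part of these levels in the results beyond these counts was not tested.

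Genes of no list were called too. Serpinb1a, an inhibitor of neutrophil proteases, had 3.7, 4.74 and 4.23 CPM in WT and 15.8, 6.72 and 21.1 CPM in CD97-deficient cells (log2 1.8 ± 0.38). Its call was lost in 4 of the 6 fits that left out 1 library and its adjusted p was 0.115 without WT replicate 1. Tex14, known from germ cell bridges, had 5, 7.59 and 6.6 CPM in WT and 1.06, 1.46 and 1.45 CPM in CD97-deficient cells, and Trim6, a ubiquitin ligase, 11.7, 12.7 and 13 CPM against 4.25, 4.53 and 3.01 CPM. Both were called in each fit that left out 1 library and with the sex covariate (adjusted p = 0.0402 and 0.0443). Abca5, a lipid transporter, had 33.4, 15 and 41.7 CPM in WT and 8.26, 9.2 and 7.91 CPM in CD97-deficient cells, so WT replicate 2 lay nearest to them, and its adjusted p was 0.131 without CD97-deficient replicate 3. Rasgrp1, which activates RAS, had 85, 88.6 and 78.9 CPM in WT and 45.4, 47 and 49.7 CPM in CD97-deficient cells. Among abundant genes, Dnase1l3, a secreted DNase of dendritic cells, fell from 1850, 1640 and 1750 CPM to 1200, 1330 and 1250 CPM.

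Some larger differences were not called by edgeR but were called by DESeq2. The Y-linked Ddx3y, Kdm5d, Eif2s3y and Uty were low in WT replicate 2 and in the CD97-deficient libraries, as given above for their sum, with DESeq2 adjusted p of 0.000557, 0.000568, 0.000647 and 0.00063 in that order. BC018473 (DESeq2 adjusted p = 0.000732) had 1330 and 552 CPM in WT replicates 1 and 3, but 12.6 CPM in WT replicate 2 and 10.7 to 12.7 CPM in CD97-deficient cells. St6galnac1 (DESeq2 adjusted p = 0.000973), a sialyltransferase gene next to it on chromosome 11, had 63.9, 1.08 and 34.4 CPM in WT and 0.334 to 1.02 CPM in CD97-deficient cells. Pou2af1, a B cell coactivator that neither tool called, had 58.8 CPM in CD97-deficient replicate 3 and 14.4 and 4.53 CPM in the other 2, against 2.54 to 8.27 CPM in WT.

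The CD97-deficient libraries were also set against the Gα13-deficient ones. Sex moved with genotype in part here too. Gα13-deficient replicates 1 and 3 had 163 and 153 CPM of Xist (scaled by library totals) and 348 and 434 CPM of the Y-linked genes, a male pattern. Gα13-deficient replicate 2 had 7060 and 8.98 CPM, the female pattern given above for the CD97-deficient group. The part of sex in this comparison was not tested. A fit over all 9 libraries called 6 of 12271 genes between the knockouts (0.0489%), of which Xdh and Lphn3 were also called against WT. Lphn3, an adhesion receptor of the latrophilin family, had a mean of 226 CPM in CD97-deficient, 139 CPM in Gα13-deficient and 346 CPM in WT cells. Xdh, xanthine dehydrogenase, had means of 8.89, 20.7 and 16.9 CPM in the same order. The other 4 were Gna13, Plcb1, Plcb4 and Cox6a2, with means in CD97-deficient cells of 230, 0.172, 13.7 and 0.86 CPM next to 213, 0.415, 12.5 and 1.23 CPM in WT. A fit of the 6 knockout libraries alone called 51 genes, so the count depends on the libraries in the fit. The chromosome 11 gene BC018473, which the 9-library fit did not call, was at 10.8, 12.5 and 13.1 CPM (scaled by library totals) in CD97-deficient and at 852, 402 and 370 CPM in Gα13-deficient libraries. Cd97 itself was not called between the knockouts, with means of 668 CPM in CD97-deficient and 1130 CPM in Gα13-deficient cells. The labels of the Gα13-deficient libraries name both alleles in their genotype text, and the design text gives each knockout its own allele.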

How the data were processed

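RNA-seq libraries of splenic cDC2s were deposited as 1 table of raw counts per gene, with 0 columns left unmapped to a sample. The authors made these counts with STAR and HTSeq on mm10, per the submitters' processing notes, which also name DESeq2, and versions and the use of strand are not given in the sources used here. Groups came from the labels, and columns were matched through the labels' source names. Genes with at least 1 CPM in 3 of the 6 libraries were fitted with edgeR 4.0.16 (TMM factors, robust quasi-likelihood test, R 4.3.3), and calls had a Benjamini-Hochberg adjusted p under 0.05. Levels are CPM on the TMM scale, and SE is the log2 fold change divided by the root of F. DESeq2 1.42.0, other scalings, filters, covariates and left-out libraries were alternatives. On simulated counts for 11977 genes, the fit recovered 22 of 67 genes with a 1.5-fold difference, 47 of 67 with a 2-fold one and 62 of 66 with a 4-fold one, and also called 10 genes given none. Between 5875891 and 9581458 counts per library limit the precision of genes with few reads. Positions are from GENCODE release 21 (mm10) and promoters from RefSeq (GRCm38.p6).

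The gene lists and members were chosen with earlier results of these data known, so list counts are descriptions and no list was tested. Named genes were, per direction, the 10 largest called changes and 10 smallest p at a mean log2 CPM of at least 2 with no overlap, the 5 most abundant calls, the 5 largest changes that were not called and the 5 smallest p among genes also called with the sex covariate. Up to 5 members of each list with the smallest p, members whose role is explained, the targeted and the sex-linked genes were added. The ranking skipped ribosomal protein genes, pseudogenes and Gm or Rik symbols, and genes outside this rule were chosen after their values were seen. Some genes and lists are not reported here.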

Additional observations from a re-analysis of the deposited data

How the results depend on the processing

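Most counts kept within 1.5 times under other scalings and filters: DESeq2 size factors within edgeR gave 421 genes higher and 352 lower, library totals 582 and 292, no filter 444 and 347, and DESeq2 itself 511 and 513. With the sex pattern as a covariate the counts were 17 and 48, with the macrophage level 269 and 206, and in the female-pattern libraries alone, an alternative chosen after seeing the data with 1 WT library assumed to vary like the other group, 94 and 132. Leaving out 1 library gave 141 to 578 higher and 97 to 468 lower. A fit of the 6 knockout libraries called 51 genes directly between the knockouts. With the sex covariate the list medians were 0.59 for DNA replication, 0.67 for mitosis, -0.79 for maturation, -0.07 for MHC class II, -0.7 for plasmacytoid, -0.18 for red pulp macrophage and -0.42 for marginal zone macrophage markers, and the female-pattern libraries alone gave 0.59, 0.67, -0.79, -0.7, -0.17 and -0.42 for these lists without MHC class II. Library totals gave medians of -0.14 for NF-κB and 0.2 for ribosomal proteins, and no filter gave -0.04 for the BCL2 family. Leaving out 1 library, list medians ranged from -0.15 (without CD97-deficient replicate 3) to -0.07 for interferon response, from -0.23 to -0.15 for NF-κB (without CD97-deficient replicate 2 and WT replicate 1), from 0.06 to 0.21 for glycolysis (without WT replicate 1 and WT replicate 3), and from 0.04 to 0.12 for the unfolded protein response (lowest without WT replicate 3). The marker medians ranged from -0.07 to 0.58 for B cells, from -0.06 to 0.63 for monocytes, from 0.34 to 1.93 for red pulp macrophages and from 0.12 to 1.39 for marginal zone macrophages, and from 0.04 to 0.66 for cDC1s. All upper ends of these marker ranges came without WT replicate 2. Where no construction of the alternative shows it, the cause was not tested. Of the 183 named genes that were called, 144 lost the call with the sex covariate, 48 with the macrophage covariate and 1 with DESeq2. Replicate numbers here are those of the sample titles, and deviations of same-numbered libraries correlated at -0.305 to 0.065. With that number as a block the fit called 412 genes higher and 367 lower. The count columns number the WT libraries otherwise. By column number, WT replicate 1 would meet CD97-deficient replicate 2 (r = 0.118) and WT replicate 2 CD97-deficient replicate 3 (r = 0.119). A pairing by column number was not tested, so a paired design is not excluded.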

Other observations

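A group of 6 nearby genes on chromosome 11 (mm10), chosen after its values were seen, separated the libraries in another way than genotype. From Cygb (116645595 to 116654313), a globin gene, over Gm11744, St6galnac2, BC018473 and St6galnac1 to Mxra7 (116803062 to 116828046), all 6 were low in WT replicate 2 and in the 3 CD97-deficient libraries and high in WT replicates 1 and 3 and in the 3 Gα13-deficient libraries. Scaled by library totals, BC018473 was at 1276, 12.4 and 554 CPM in WT. It had 10.8, 12.5 and 13.1 CPM in CD97-deficient and 852, 402 and 370 CPM in Gα13-deficient libraries. Cygb had 264, 15.5 and 288 CPM in WT, 12, 9.55 and 13.6 CPM in CD97-deficient and 235, 117 and 112 CPM in Gα13-deficient libraries. St6galnac2, a sialyltransferase gene, had 320, 7.99 and 167 CPM, then 8.69, 5 and 8.17 CPM, then 243, 131 and 100 CPM in the same order. With a gap of at least 2-fold after adding 0.5 CPM, these 6 genes were the genes in which WT replicate 2 lay with the CD97-deficient libraries below all others. For WT replicate 1 there were 0 such genes and for WT replicate 3 there were 2. The stretch also holds 1810032O08Rik, with 32, 11.1 and 44.2 CPM in WT, 11.6, 10.3 and 12.2 CPM in CD97-deficient and 34, 26.8 and 23.1 CPM in Gα13-deficient libraries, and Snord1b, at 1.57 CPM or less, and neither had such a gap. Of the 6, Gm11744 was called lower against WT.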
